A study of Mus musculus with 8 samples.

Results

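The enzymes that place and remove methyl groups on histone lysines were followed in mouse embryonic stem cells. A gene counted as a member when its symbol began with Kdm or Kmt and a digit, with Setd and a digit or b, or was Ehmt1, Ehmt2, Suv39h1, Suv39h2, Suv420h1, Suv420h2, Nsd1, Nsd2 or Nsd3. This gave 41 of the 23560 genes in the expression tables, in 62 transcript records. Of these, 23 were writers (methyltransferases) and 18 erasers (demethylases, the Kdm names). The Kmt2a and Setdb2 genes were not analysed here.

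The cells carried p53 (p53+/+) or lacked it (p53-/-). They were of strain C57BL/6X129Sv mix, had been passaged fewer than 20 times and were grown in serum with leukemia inhibitory factor. They were left untreated or received 0.5 uM Adriamycin (doxorubicin, a topoisomerase poison that breaks DNA) for 8 h. Each of the 4 combinations of genotype and treatment was sequenced as input (RNA with a poly(A) tail) and after pull-down with an antibody to hnRNP L (RNA immunoprecipitation, RIP), so that each of the 8 groups was 1 library. The labels do not say whether each genotype was 1 clone, and no control-antibody RIP was used here.

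Writers of the SET-domain family transfer methyl groups from S-adenosylmethionine to lysines of histones H3 and H4. Erasers take them off again, Kdm1a and Kdm1b with a flavin and the Jumonji enzymes with iron, oxygen and 2-oxoglutarate. Methylation of H3K4 is found at active promoters and enhancers, that of H3K36 along transcribed genes, and that of H3K9, H3K27 and H4K20 largely in silenced or compacted chromatin. In embryonic stem cells, H3K27 methylation is known for silencing lineage genes and H3K9 methylation for silencing retroviral elements. hnRNP L is an RNA-binding protein of the nucleus that binds CA-rich sequence and is known for its part in splicing, and it is also known to associate with Setd2.

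Expression was given as FPKM, a fragment count corrected for transcript length and for sequencing depth. Each library's FPKM were summed per gene and divided by 1 factor per library (0.59 to 1.45, the median ratio to the mean library), here called scaled FPKM. Differences are on the log2(scaled FPKM + 1) scale, which understates changes of genes with low FPKM, most of all near or below 1 FPKM. Values from 4 libraries are always given in the order untreated p53+/+, treated p53+/+, untreated p53-/- and treated p53-/-. The tables held 5.67 to 7.48 gigabases on transcripts in the inputs and 3.21 to 4.94 in the RIP libraries. By an estimate from the same tables, transcripts took up 87.6 to 90.6% of mapped bases in the inputs, and 48.9, 41.1, 65.2 and 64.2% in the RIP libraries. All 10 embryonic stem cell markers examined, Pou5f1 and Nanog among them, were at 1 FPKM or more in the 8 libraries. Fibroblast genes differed between the genotypes: 12 such genes, collagens among them, summed to 13.7, 22.2, 416 and 489 FPKM in the inputs and to 32.5, 95.8, 2617 and 2466 FPKM in the RIP libraries. Most of the RIP sums came from 1 gene, Bgn, at 27.4, 89.7, 2508 and 2360 FPKM. The collagen Col1a1 stood at 0.247, 2.23, 61.0 and 65.6 FPKM in the inputs and lower, at 0.188, 0.897, 23.6 and 24.7 FPKM, in the RIP libraries. Between 4 and 5 of the 12 were at 0 in each p53+/+ library and 0 of 12 in each p53-/- library. The Trp53 messages stood at 236, 173, 140 and 121 FPKM in the inputs, and the labels do not say which part of the gene was removed. The p53 target Mdm2 stood at 25.5 and 221 FPKM in untreated and treated p53+/+ inputs, and at 14.8 and 16.5 FPKM in p53-/- inputs.

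The member with the highest input level was Kdm1a (LSD1), which removes methyl groups from H3K4 (chr4:136106448-136158638, mm9). It stood at 77.4, 49.9, 68.5 and 57.1 scaled FPKM in the inputs and at 70.8, 44.2, 58.2 and 65.3 scaled FPKM in the RIP libraries. The treated p53+/+ library was the lowest in both materials. Kdm5b, Kmt5c, Setd6, Kmt5a and Ehmt2 followed, with input means between 32.1 and 45.1 FPKM. At the other end, Kdm4d stood at 0.149, 0.348, 0.107 and 0.185 scaled FPKM in the inputs and at 0.240, 0.529, 0.0752 and 0.199 scaled FPKM in the RIP libraries. Between these ends lay messages of very different length, from 1669 bases for Setd6 to 19827 bases for Kmt2d, a writer of H3K4 methylation. Setd6 is known for methylating a subunit of NF-kB. The 37 members with a mean of 1 FPKM or more over the 8 libraries, 23 writers and 14 erasers, entered the tests. Kdm4d, Kdm5d, Kdm7a and Kdm8 did not.

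**Figure D1:**
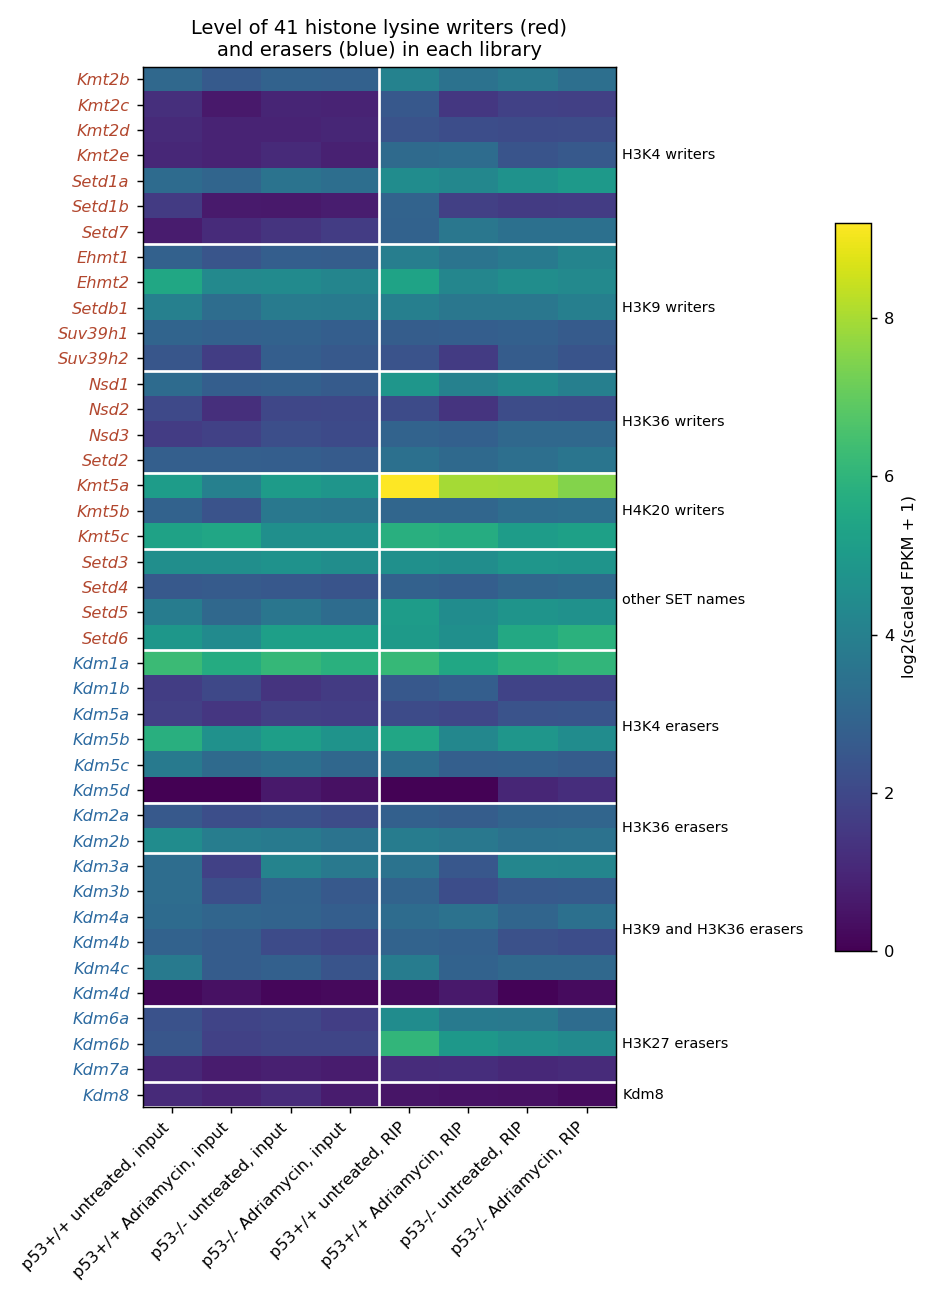
Level of each of the 41 genes in the 8 libraries as log2(scaled FPKM + 1), by colour, with writers named in red and erasers in blue; each cell is 1 library. Brighter colours mark higher levels. Kdm1a is among the brightest rows in every library, and Kmt5a stands out in the 4 RIP libraries, at 182 to 589 scaled FPKM.

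Summed over the 23 writers tested, input levels came to 264, 189, 236 and 216 scaled FPKM, and RIP levels to 937, 513, 550 and 502. For all 18 erasers, with those under the test filter included, the sums were 233, 135, 180 and 145 scaled FPKM in the inputs. In the RIP libraries they were 284, 169, 195 and 190. The writers' larger RIP sum came in good part from 1 gene, since Kmt5a made up 62.9, 48.4, 44.6 and 36.3% of it. In both classes the treated p53+/+ input had the lowest sum of the 4 inputs.

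The first comparison asked which of these messages were over- or under-represented in the hnRNP L RIP. Of the 37 members tested, 23 were higher in RIP than in input and 3 lower (limma with the 4 combinations as a block, adjusted p under 0.05 over 11832 genes), while 33% of all genes tested were called higher and 42.5% lower. Writers made up 16 of the 23 higher members and 0 of the 3 lower ones. The median change was 0.80 for writers, 0.33 for erasers and -0.11 for all genes tested. In 26 members RIP was above input in each of the 4 combinations, and in 5 below, beside 35.8% and 44.8% of all genes. With 1 library per combination, the spread in this test is that between the 4 combinations.

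The strongest recovery was that of Kmt5a (Set8), the sole known H4K20 monomethyltransferase, whose mark is needed for chromosome compaction and the response to DNA damage (chr5:124889939-124912316, mm9). Kmt5a stood at 33.4, 15.0, 32.6 and 27.03 scaled FPKM in the inputs and at 589, 248.5, 245 and 182 in the RIP libraries. Every RIP library was above every input. Its change was 3.41 ± 0.26 (SE, 4 pairs, limma adjusted p = 3.82e-05), or 10.6-fold in scaled FPKM + 1. Among the other H4K20 writers, which carry the mark on to higher methylation, Kmt5c rose by 0.48 ± 0.09 (adjusted p = 0.00279) and Kmt5b stood at 0.07 ± 0.18 (adjusted p = 0.746).

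Next came the H3K27 erasers. Kdm6b (JMJD3), known for opening genes silenced by Polycomb (chr11:69212020-69227177, mm9), stood at 4.58, 2.45, 2.79 and 2.77 scaled FPKM in the inputs and at 64.9, 29.0, 23.6 and 20.0 in the RIP libraries. Its change was 2.97 ± 0.18 (limma adjusted p = 1.95e-05), or 7.81-fold in scaled FPKM + 1. The added 1 understates the fold at these input levels, and with a pseudocount of 0.1 the change was 3.29. Kdm6a (UTX), its X-linked relative and a subunit of the Kmt2c and Kmt2d complexes (chrX:17739793-17856484, mm9), stood at 4.04, 2.71, 2.86 and 2.26 scaled FPKM in the inputs and at 21.0, 13.0, 12.3 and 8.53 in the RIP libraries. Its change was 1.84 ± 0.11 (adjusted p = 1.95e-05). For both, the lowest RIP library was above the highest input. Among erasers, these were the 2 that rose by 1 or more.

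All 7 H3K4 writers tested rose in RIP, with a median of 1.22. Setd7, a monomethyltransferase that also acts on proteins other than histones (chr3:51319240-51364745, mm9), stood at 0.641, 1.17, 1.60 and 2.08 scaled FPKM in the inputs and at 6.42, 11.4, 9.51 and 9.47 in the RIP libraries, a change of 2.12 ± 0.13 (limma adjusted p = 2.07e-05). Kmt2e (MLL5), a SET protein of this family whose own catalytic activity is doubtful (chr5:22940247-23010047, mm9), stood at 1.05, 0.889, 1.11 and 0.786 scaled FPKM in the inputs and at 7.99, 8.55, 4.29 and 4.87 in the RIP libraries, a change of 1.88 ± 0.17 (adjusted p = 8.36e-05). No input of either gene reached its RIP libraries. Setd1a and Setd1b, which build the broad trimethylation of promoters, rose by 1.32 ± 0.10 and 1.07 ± 0.10. Kmt2d and Kmt2c, which monomethylate enhancers, rose by 1.22 ± 0.08 and 0.95 ± 0.11, and Kmt2b, which acts at bivalent promoters, by 0.80 ± 0.10.

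Of the 4 H3K36 writers, 3 rose. Nsd1, which dimethylates H3K36, rose by 1.45 ± 0.09, and its relative Nsd3 by 1.07 ± 0.09. The Setd2 protein, which trimethylates H3K36 and travels with RNA polymerase II, is known as a partner of hnRNP L. The Setd2 message rose by 0.62 ± 0.11 (limma adjusted p = 0.00186), beside a median of 0.54 over all genes of 6 kb or more. With FPKM as deposited it stood at -0.0644. Its input levels of 5.92, 5.90, 5.73 and 5.29 scaled FPKM were all below its RIP levels of 9.46, 7.76, 9.41 and 10.9. Nsd2 stood at 0.12 ± 0.08 (adjusted p = 0.224). Of the 5 H3K9 writers, 1 rose, Ehmt1 (GLP), by 1.14 ± 0.10. Its dimerization partner Ehmt2 (G9a) stood at 0.01 ± 0.09 (adjusted p = 0.961), Setdb1, which silences endogenous retroviruses, at 0.08 ± 0.11, and Suv39h1 and Suv39h2, which trimethylate H3K9 at pericentric heterochromatin, at -0.15 ± 0.08 and -0.10 ± 0.08. Among the remaining SET names, Setd5 rose by 1.28 ± 0.08, Setd4 by 0.41 ± 0.12 and Setd6 by 0.33 ± 0.11, and Setd3, known as an actin histidine methyltransferase, stood at 0.10 ± 0.08.

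The 3 members that fell in RIP were erasers. Kdm5c (chrX:148667773-148708897, mm9) and Kdm5b (chr1:136456755-136529455, mm9) remove di- and trimethylation of H3K4, and Kdm2b acts on H3K36 and brings a Polycomb complex to CpG islands. Kdm5c stood at 12.9, 8.05, 9.596 and 7.49 scaled FPKM in the inputs and at 8.99, 5.89, 6.04 and 5.40 in the RIP libraries, and fell by 0.47 ± 0.08 (limma adjusted p = 0.00171). Kdm5b stood at 55.6, 24.2, 34.3 and 25.7 scaled FPKM in the inputs and at 42.9, 17.9, 27.7 and 21.2 in the RIP libraries, and fell by 0.34 ± 0.08 (adjusted p = 0.00671). For both genes each RIP library was below the input of the same cells, although the ranges over all inputs and all RIP libraries overlap. Kdm2b stood at 21.4, 13.8, 12.5 and 10.4 scaled FPKM in the inputs and at 13.5, 11.99, 9.72 and 10.2 in the RIP libraries. It fell by 0.29 ± 0.11, with an adjusted p of 0.0487 that lies next to the threshold. Their tested relative Kdm5a went the other way and rose by 0.53 ± 0.09. Smaller rises were also called for Kdm1b (0.59 ± 0.12), Kdm2a (0.56 ± 0.12), Kdm3a (0.39 ± 0.12) and Kdm4c (0.34 ± 0.12). Kdm4a stood at 0.32 ± 0.12 with an adjusted p of 0.0502, Kdm4b at 0.15 ± 0.08, Kdm1a at -0.08 ± 0.10 and Kdm3b at -0.18 ± 0.10.

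**Figure D2:**
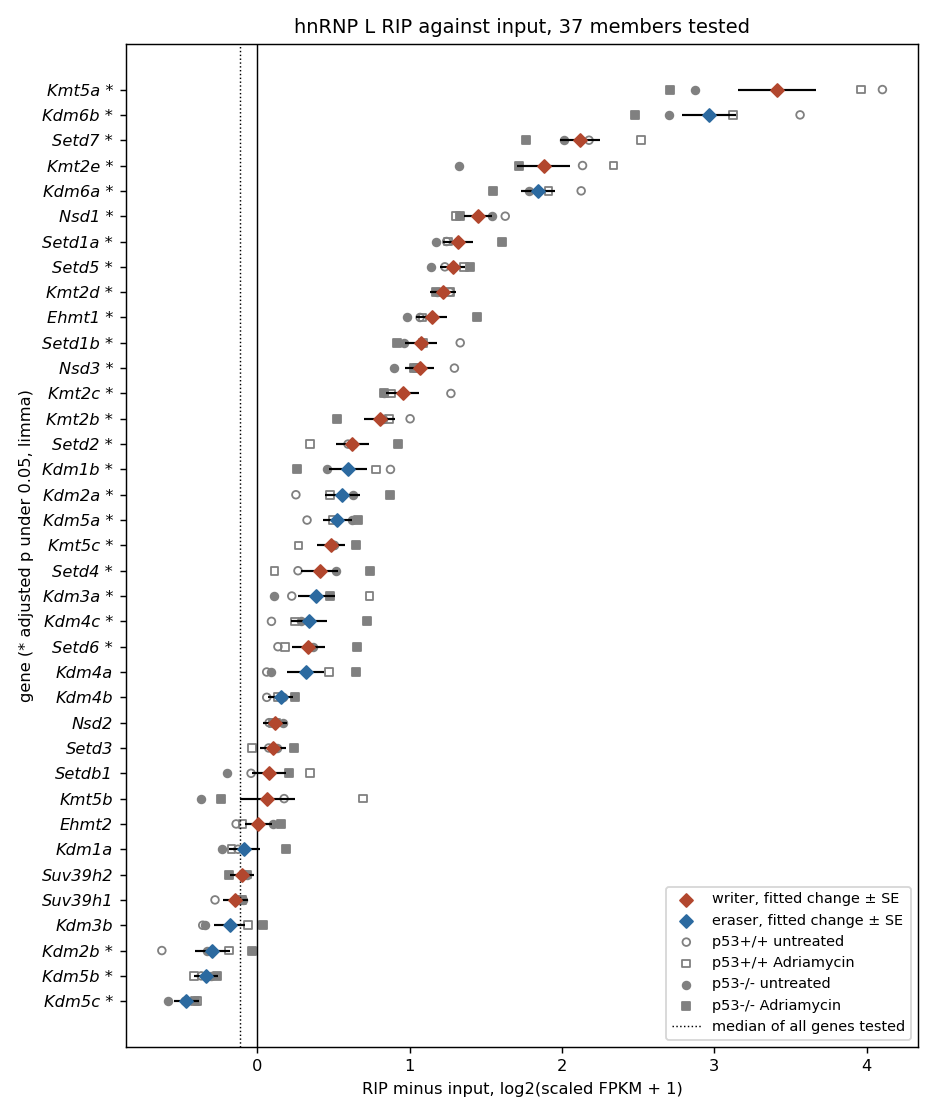
RIP minus input on the log2(scaled FPKM + 1) scale for the 37 genes tested; diamonds give the fitted change with its SE (writers red, erasers blue), grey symbols the 4 single combinations, the dotted line the median of all genes tested, and asterisks an adjusted p under 0.05. Kmt5a lies farthest right at 3.41 and Kdm5c farthest left at -0.47.

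Of the 12 members that rose by 1 or more, 11 kept their call under every setting that tested them, and the exception was Ehmt1 with FPKM as deposited. With a filter of 5 FPKM, 5 of the 12 were not tested. The small changes depend on the scaling: with FPKM as deposited the median of all genes moves from -0.11 to -0.72, 12 members rise and 13 fall, and 9 of the 23 higher members take a value below 0. Among the 4 erasers under the filter, a fit without it gave -0.55 ± 0.07 for Kdm8 (limma adjusted p = 0.00205) and 0.33 ± 0.08 for Kdm7a (adjusted p = 0.0281), while Kdm4d and Kdm5d had adjusted p of 0.264 and 0.136. Kdm8, a Jumonji protein known for hydroxylating amino acids, stood at 1.14, 0.908, 1.18 and 0.623 scaled FPKM in the inputs and at 0.437, 0.362, 0.330 and 0.218 in the RIP libraries.

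Transcript length moved with the RIP change over the whole table. Genes under 1 kb had a median change of -0.92, those of 1 to 2 kb -0.51, of 2 to 4 kb -0.08, of 4 to 6 kb 0.24, and of 6 kb or more 0.54. The members are long, with a median of 5265 bases against 2603 for all genes tested. Members were also set against genes of their own length. The 10 writers of 6 kb or more had a median change of 1.15, with 9 higher and 0 lower, where 64.6% of all genes of that length were called higher and 10.6% lower. The 6 erasers of that length had a median of 0.17, with 3 higher and 2 lower. At 4 to 6 kb, 3 of 6 writers and 4 of 6 erasers were called higher and 0 lower, with medians of 0.57 and 0.36, beside 48.0% of all genes higher and 22.9% lower. After a smooth length trend was taken out, the medians of these long genes were 0.34 for writers, -0.45 for erasers and -0.05 for all genes. The 2738 bases of Kmt5a place it in a class whose median change was -0.08. Across the 37 members, which share the same 8 libraries, length and RIP change had a Pearson r of 0.235 and a Spearman rho of 0.432, against 0.352 and 0.409 across the 11832 genes tested, which are not independent replicates. With the length trend removed, 13 of the 16 writers and 2 of the 7 erasers called higher kept that call, the erasers being Kdm6a and Kdm6b. Kdm5a then stood at -0.20, and the part of length in these calls was not tested further.

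**Figure D3:**
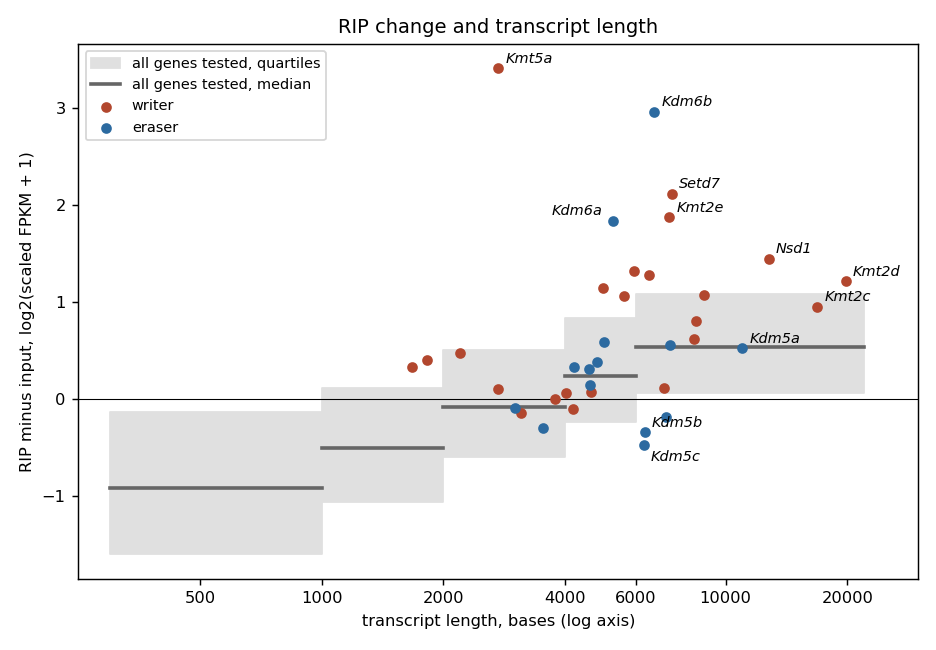
RIP minus input, log2(scaled FPKM + 1), against transcript length on a log axis for 23 writers (red) and 14 erasers (blue); grey bands and lines give the quartiles and median of all genes tested in 5 length classes. The class medians run from -0.92 to 0.54, and Kmt5a, Kdm6b, Setd7, Kmt2e and Kdm6a lie above their classes.

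Whether RIP recovery differed between the genotypes was tested on the 4 differences of RIP and input, 2 per genotype. Of the 37 members, 1 was called, Kmt5a, lower in p53-/- cells, where 2.37% of all genes tested were called lower and 0.803% higher. Its RIP minus input difference was 4.10 and 3.96 in untreated and treated p53+/+ cells and 2.87 and 2.71 in p53-/- cells. The genotypes did not overlap, and they differed by -1.24 ± 0.17 (limma, 2 pairs a side, adjusted p = 0.0210). The 2 pairs of a genotype were its untreated and its treated cells. The spread in this test is thus that between treatments, not between replicates. In untreated cells the inputs were alike, 33.4 and 32.6 scaled FPKM, and the RIP libraries held 589 and 245. In treated cells the input was lower in p53+/+ (15.0 against 27.03) and the scaled RIP level higher (248.5 against 182). With FPKM as deposited the order of the treated RIP libraries turned, at 147 in p53+/+ and 184 in p53-/-. That of the untreated RIP libraries stayed, at 348 and 231. Next in order were Kdm6b at -0.75 (adjusted p = 0.0956), Kmt5b at -0.74 (adjusted p = 0.110) and Kmt2e at -0.72 (adjusted p = 0.103), and the highest was Setd4 at 0.44 (adjusted p = 0.196). With its highest record alone, Kmt5b stood at -0.0421 (adjusted p = 0.915). The Kmt5a call was lost without a filter on low genes (adjusted p = 0.147), with FPKM as deposited (-0.52, adjusted p = 0.134) and when either p53-/- pair was left out (adjusted p of 0.106 without the untreated and 0.215 without the treated pair). The share of RIP bases on transcripts and the fibroblast markers also differed between the genotypes, and their part in this result was not tested.

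Treatment with Adriamycin was compared within each genotype on 1 library a side, so no test was possible and differences are given as measured. In p53+/+ inputs, 31 of the 37 members were lower after Adriamycin and 6 higher, beside 61.7% and 38% of all genes. Over the other 3 scalings of the libraries 25 to 30 were lower. The median difference was -0.48 over the members, -0.45 over writers, -0.61 over erasers and -0.17 over all genes tested. By 1 or more, 6 members were lower and 0 higher, beside 6.2% and 7.47% of all genes. Of the 6, 4 were erasers: Kdm3a, Kdm3b, Kdm4c and Kdm5b. At 0.5 or more, 17 were lower and 0 higher, beside 25.6% and 15.6% of all genes. For every count of bounds, the authors' FPKM bounds were summed per gene and divided by the library's factor. In 28 members these scaled bounds lay apart in the lower direction and in 2 in the higher one, beside 46.1% and 24.7% of all genes. They describe 1 library each, not replicates. The counts depend on the scaling: as deposited, the bounds of Kdm4b, counted as lower, overlap (7.204 to 8.085 FPKM untreated, 7.406 to 8.329 treated). Those of Setd3, not counted, lie apart upward (25.57 to 27.73 and 30.92 to 33.38).

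Kdm3a, an eraser of H3K9 mono- and dimethylation known for keeping self-renewal genes open in embryonic stem cells (chr6:71538966-71582899, mm9), had the largest difference. It stood at 8.74, 2.41, 16.4 and 12.1 scaled FPKM in the inputs and at 10.4, 4.68, 17.7 and 17.3 in the RIP libraries. The treated p53+/+ library was the lowest in both materials, lower than the untreated one by 1.51 in input and 1.00 in RIP, and both p53-/- libraries were above both p53+/+ libraries. The other 5 lay close together, between -1.17 and -1.08, among them its H3K9 relatives Kdm3b and Kdm4c. Kdm3b stood at 8.89, 3.67, 6.50 and 4.99 scaled FPKM in the inputs and at 6.71, 3.47, 4.92 and 5.14 in the RIP libraries. Kdm4c stood at 12.6, 5.34, 6.14 and 4.21 scaled FPKM in the inputs and at 13.5, 6.52, 7.73 and 7.59 in the RIP libraries. Their p53+/+ input differences were -1.08 and -1.10, but for Kdm4c the p53-/- inputs were near the treated p53+/+ level. The other 2 tested members of this group, Kdm4a and Kdm4b, differed by -0.21 and -0.19.

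Kdm5b was lower by 1.17 in p53+/+ input and 1.21 in p53+/+ RIP. The 2 writers were Kmt5a, at -1.10 in input and -1.24 in RIP, and Ehmt2, which makes the H3K9 dimethylation of euchromatin (chr17:35035444-35050992, mm9), at -1.14 and -1.10. Ehmt2 stood at 43.3, 19.0, 20.2 and 17.3 scaled FPKM in the inputs and at 39.2, 17.7, 21.7 and 19.3 in the RIP libraries. The untreated p53+/+ library was above the other 3, which lay close together. Of the RIP libraries of p53+/+ cells, 7 members were lower by 1 or more after treatment and 0 higher, beside 8.11% and 7.88% of all genes, with a median of -0.40 against -0.20. With 0.5 as the limit, 17 were lower and 1 higher, beside 29.2% and 16.1%, and the bounds lay apart in 23 and 2, beside 42.2% and 21.9%. Beyond Kmt5a, Kdm5b, Ehmt2 and Kdm3a these were Setd1b (-1.18), Kdm6b (-1.14) and Kmt2c (-1.03). Setd1b stood at 2.03, 0.581, 0.541 and 0.666 scaled FPKM in the inputs and at 6.63, 2.36, 2.00 and 2.14 in the RIP libraries, and here too the untreated p53+/+ library alone was high. Kmt2c stood at 1.39, 0.531, 0.929 and 0.865 scaled FPKM in the inputs and at 4.76, 1.81, 2.44 and 2.32 in the RIP libraries. The highest members after treatment were Setd7, by 0.41 in input and 0.75 in RIP, and Kdm1b, by 0.33 and 0.23. The sizes near 1 depend on the scaling: with another median ratio, quantile normalization or a length trend taken out, 3 members were lower by 1 or more in p53+/+ input, and with FPKM as deposited 1, Kdm3a, whose difference lay between -1.48 and -1.36 over these scalings.

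**Figure D4:**
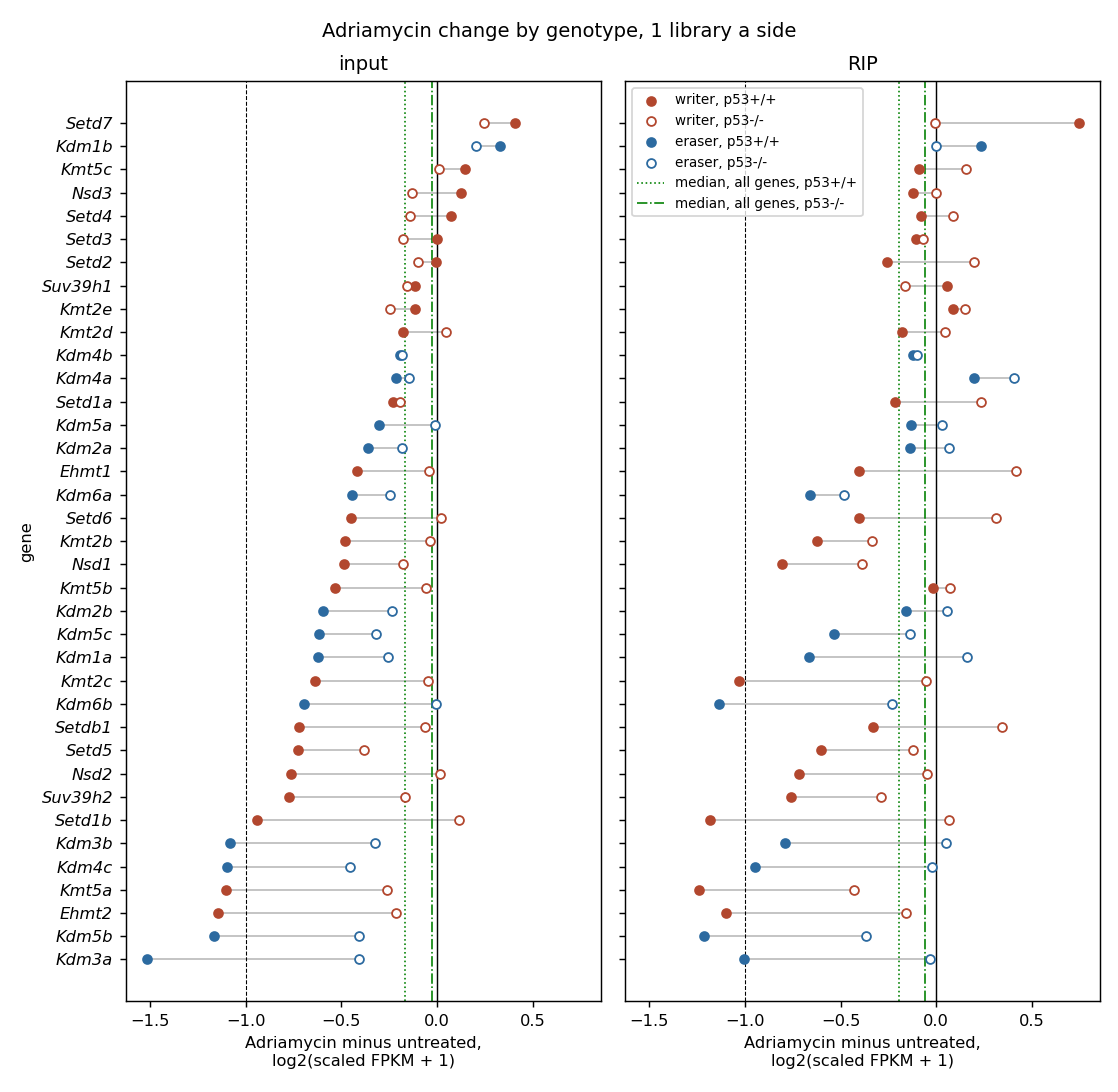
Adriamycin minus untreated on the log2(scaled FPKM + 1) scale in input and RIP for each gene tested, p53+/+ filled and p53-/- open, writers red and erasers blue, with green lines at the medians of all genes tested; each point sets 1 library against 1. In input, filled points reach -1.51 (Kdm3a), while open points lie between -0.46 and 0.25.

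In p53-/- cells the same treatment gave 0 members lower and 0 higher by 1 or more in input, beside 0.194% and 0.144% of all genes, and 0 and 0 in RIP, beside 0.304% and 0.203%. At 0.5 or more the counts were also 0 and 0 in both materials, beside 1.43% lower and 0.625% higher in input and 6.96% and 2.32% in RIP. The authors' bounds, scaled as above, lay apart in 17 lower and 2 higher members in input, beside 21.2% and 8.66%. In RIP they lay apart in 7 and 7, beside 25.9% and 13.7%. By sign alone, 30 of the 37 members were lower in p53-/- input and 7 higher, beside 56.3% and 43.5% of all genes. With the other scalings of the libraries, 23 to 30 were lower. In p53-/- RIP, 19 were lower and 18 higher, beside 58.5% and 41.4% of all genes. Under the other scalings, 12 to 16 were lower and 21 to 25 higher. The input median was -0.15 over the members and -0.03 over all genes, and single members ranged from -0.46 for Kdm4c to 0.25 for Setd7. Taken as a difference of differences (p53+/+ minus p53-/- change in input, 4 libraries), 28 of the 37 members had a lower value in p53+/+ cells, beside 61.1% of all genes, with a median of -0.35 against -0.14 over all genes. Kdm3a (-1.11) and Setd1b (-1.05) were lower by 1 or more and 0 higher, beside 4.01% and 7.2% of all genes, and at 0.5 or more 12 were lower and 0 higher, beside 22.2% and 15%.

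The set that follows depends on the scaling, since the other scalings left 1 to 3 members lower by 1 or more in p53+/+ input. With the scaling used here, 4 members were lower by 1 or more after Adriamycin in both materials of p53+/+ cells: Ehmt2, Kdm3a, Kdm5b and Kmt5a. The bases before their transcription starts are shown to see what these promoters hold in common (RefSeq, GRCm38.p6, 250 bases on the gene's strand, 5′ to 3′, the most upstream start where there were several). The windows lie at chr17:34898224-34898473 on the plus strand for Ehmt2, chr6:71632918-71633167 on the minus strand for Kdm3a, chr1:134559928-134560177 on the plus strand for Kdm5b, and chr5:124439680-124439929 on the plus strand for Kmt5a. Capitals mark matches, on either strand, to CCAAT (the NF-Y box), ACGTG (the E-box and hypoxia-element core), TTTGAA (the core of the cell cycle homology region) and the p53 consensus decamer. A CACGTG is 2 overlapping ACGTG matches, 1 on each strand.
Ehmt2: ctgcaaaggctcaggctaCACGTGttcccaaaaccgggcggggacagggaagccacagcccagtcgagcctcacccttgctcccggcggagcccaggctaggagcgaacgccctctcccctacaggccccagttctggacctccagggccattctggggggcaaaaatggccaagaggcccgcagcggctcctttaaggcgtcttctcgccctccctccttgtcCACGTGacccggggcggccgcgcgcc
Kdm3a: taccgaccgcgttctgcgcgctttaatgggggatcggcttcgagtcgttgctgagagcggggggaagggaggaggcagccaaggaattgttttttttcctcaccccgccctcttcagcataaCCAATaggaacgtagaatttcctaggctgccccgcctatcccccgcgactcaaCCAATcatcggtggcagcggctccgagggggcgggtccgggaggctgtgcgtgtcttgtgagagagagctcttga
Kdm5b: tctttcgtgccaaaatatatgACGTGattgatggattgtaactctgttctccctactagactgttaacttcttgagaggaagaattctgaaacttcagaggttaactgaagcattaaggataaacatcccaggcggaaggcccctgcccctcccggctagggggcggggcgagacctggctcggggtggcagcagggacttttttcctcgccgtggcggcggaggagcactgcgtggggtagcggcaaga
Kmt5a: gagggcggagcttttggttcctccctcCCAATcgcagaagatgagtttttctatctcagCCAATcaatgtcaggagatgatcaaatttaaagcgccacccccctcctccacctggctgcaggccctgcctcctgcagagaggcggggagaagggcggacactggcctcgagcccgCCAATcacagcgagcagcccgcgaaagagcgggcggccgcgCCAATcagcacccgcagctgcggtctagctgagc

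Kmt5a held 4 CCAAT matches and Kdm3a 2, Ehmt2 held 2 CACGTG, counted as 4 ACGTG matches, and Kdm5b held 1 ACGTG. The 4 windows held 0 matches to TTTGAA and 0 to the p53 decamer. Of 32851 promoter windows of the same length, 33.8% hold CCAAT, 16.6% ACGTG, 16% TTTGAA and 7.13% the p53 decamer. For 30 of the 41 members a window was given, 42 in all, of which 17 held CCAAT, 8 ACGTG, 3 TTTGAA and 2 the p53 decamer. A match is a string of letters and not a measured site.

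The genotypes themselves were compared at each treatment, again with 1 library a side. In untreated inputs, 1 member was lower by 1 or more in p53-/- cells, Ehmt2 (-1.06), and 0 higher, beside 2.82% and 3.08% of all genes. At 0.5 or more, 8 were lower and 4 higher, beside 13.8% and 10.9%, and the bounds lay apart in 20 and 8, beside 36.7% and 25.3%. Setd1b (-0.98) and Kdm4c (-0.93) came next, and the highest were Kdm3a (0.84) and Kmt5b (0.79). Of the 14 erasers, 13 had a lower value in p53-/- input, beside 57.1% of all genes, with a median of -0.39 against -0.05 for writers and -0.07 for all genes. In treated inputs the order changed: Kdm3a was higher by 1.94 and Kmt5b by 1.27 in p53-/- cells and 0 members were lower by 1 or more, beside 8.53% higher and 10.4% lower of all genes. At 0.5 or more, 7 were higher and 2 lower, beside 25.2% and 20.6%, and the bounds lay apart in 18 and 10, beside 42.6% and 33.1%. Kmt5b (chr19:3767421-3818303, mm9) stood at 6.35, 4.08, 11.7 and 11.2 scaled FPKM in the inputs and at 7.31, 7.22, 8.86 and 9.37 in the RIP libraries, the p53-/- libraries being higher in both materials.

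In untreated RIP libraries, Kdm6b (-1.42), Setd1b (-1.35) and Kmt5a (-1.26) were lower by 1 or more in p53-/- cells and 0 higher, beside 6.03% and 3.47% of all genes. With 0.5 as the limit, 13 were lower and 3 higher, beside 21% and 12.7%, and the bounds lay apart in 22 and 6, beside 35.4% and 21.5%. In treated RIP libraries, Kdm3a (1.69) and Setd6 (1.26) were higher and 0 lower, beside 9.33% and 13.4%. With 0.5 as the limit, 7 were higher and 5 lower, beside 25.6% and 24.5%, and the bounds lay apart in 18 and 9, beside 37.3% and 33.1%. Setd6 stood at 28.2, 20.4, 35.4 and 35.9 scaled FPKM in the inputs and at 31.1, 23.2, 45.9 and 57.2 in the RIP libraries. With FPKM as deposited, 0 members were lower in untreated and 11 were higher in treated p53-/- RIP, and the median of all genes moved from -0.10 to 0.43 and from 0.05 to 0.65. The 12 fibroblast markers were higher in every p53-/- library, as given above, and their part in the genotype differences of these enzymes was not tested.

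The genotypes also differed in Kdm5d, the Y-linked eraser of H3K4 methylation (chrY:234231-280254, mm9), which lay under the filter. Its deposited FPKM were 0, 0.0282, 0.698 and 0.473 in the inputs and 0.0166, 0.0229, 0.946 and 1.31 in the RIP libraries. Both p53-/- libraries were above both p53+/+ libraries in each material, and the authors' bounds were apart in each of these comparisons. Other Y-linked genes, chosen after these values were seen, were present in all 4 inputs: Eif2s3y at 44.2, 37.6, 50.9 and 55.3 FPKM, Ddx3y at 6.38, 4.24, 6.28 and 5.68 FPKM, and the eraser Uty at 1.77, 1.23, 1.40 and 1.26 FPKM.

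**Figure D5:**
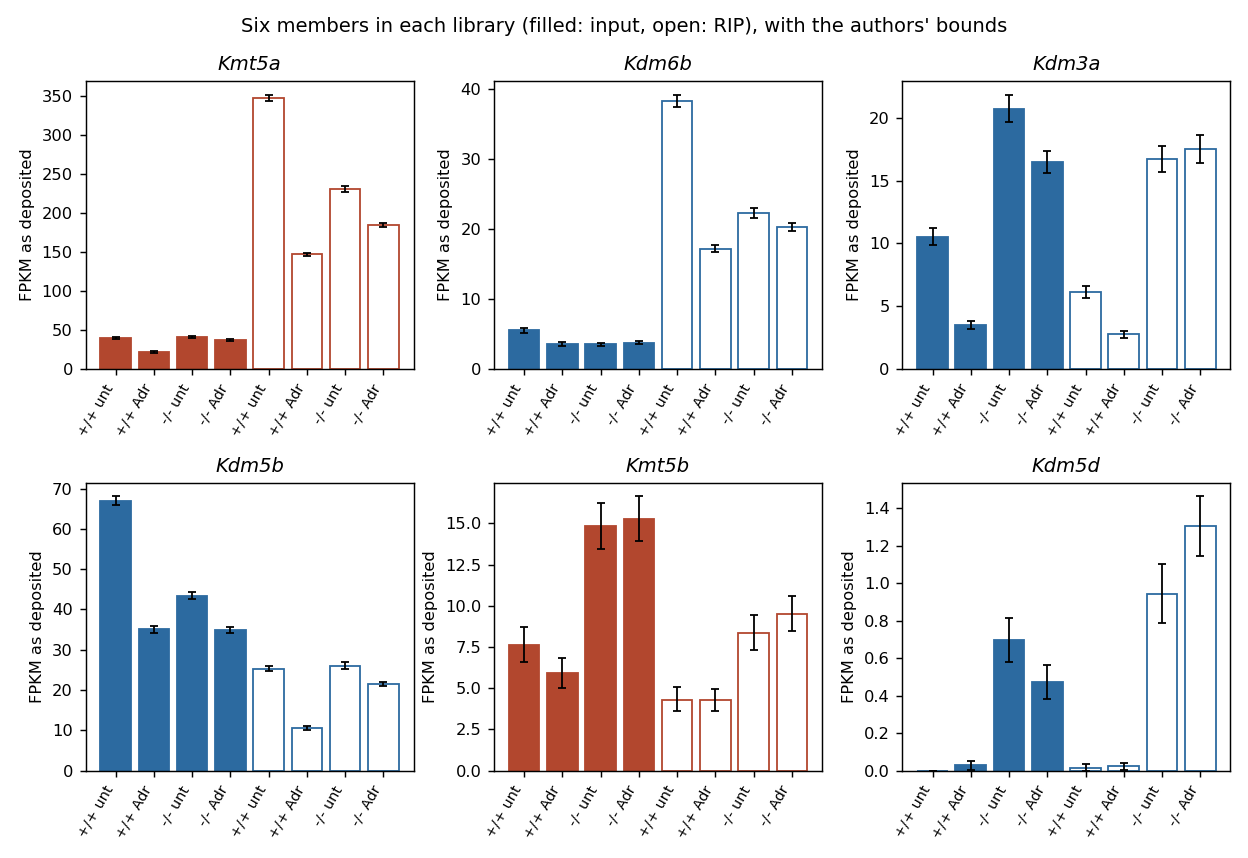
FPKM as deposited for Kmt5a, Kdm6b, Kdm3a, Kdm5b, Kmt5b and Kdm5d in each library, inputs filled and RIP open, with the authors' lower and upper bounds as bars. Kmt5a reads 147 to 348 FPKM in RIP against 21.7 to 41.2 in input, and Kdm5d is near 0 in the p53+/+ libraries.

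Several transcript records were given for 12 members, and in the input comparisons records of 2 of these, Setdb1 and Kmt5b, moved apart by 1 or more each way. For Setdb1, the record of 4660 bases was higher by 1.01 and that of 4622 bases lower by 1.28 after Adriamycin in p53+/+ input, while in treated inputs the p53-/- minus p53+/+ difference was -1.44 for the first and 1.37 for the second. Summed, Setdb1 stood at 15.1, 8.76, 13.4 and 12.7 scaled FPKM in the inputs and at 14.6, 11.4, 11.5 and 14.9 in the RIP libraries. For Kmt5b, the record of 3290 bases was higher in p53-/- inputs by 1.05 untreated and 1.86 treated, and that of 6071 bases differed by -1.08 and -1.497. The shorter record stood at 4.75, 2.55, 11.7 and 12.2 FPKM in the inputs, and the longer one at 1.34 and 2.65 FPKM in p53+/+ and under 0.01 FPKM in p53-/- inputs. In RIP minus input, records moved apart in the same way for Setdb1 in untreated p53+/+ cells (2.50 and -1.91) and for Kmt5c. The Kmt5c record of 2177 bases stood at 1.49 and 1.05 in untreated p53+/+ and p53-/- cells, and that of 2235 bases at -1.56 and -1.45, so that the called rise of 0.48 is a sum over opposite records. Summed, Kmt5c stood at 38.4, 42.6, 23.0 and 23.1 scaled FPKM in the inputs and at 54.85, 51.5, 33.0 and 36.85 in the RIP libraries. Records of nearly one length share most reads, so their split is uncertain. On the genome, 8 members overlap another record, among them Kdm1b with Dek, Kmt2e with Srpk2 and Setd7 with 5031434O11Rik. Kdm2b overlaps, over almost its whole locus, a record without a gene symbol, which was not part of its sum. That record stood at 1.28, 1.25, 0.563 and 0.536 FPKM in the inputs and at 0.158, 0.311, 0.403 and 0.356 FPKM in the RIP libraries. The labels do not say that strand was kept, so reads in the overlaps cannot be told apart.

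Related genes outside the naming rule were read from lists, whose RIP counts stand beside 33% of all genes called higher and 42.5% lower. Among other writers, 8 of 12 tested rose in RIP and 2 fell. Ezh2, the H3K27 writer, rose by 1.19 and was lower by 1.39 after Adriamycin in p53+/+ input, against 0.10 in p53-/- input. It was the only 1 of the 12 lower by 1 or more in p53+/+ input. There 0 were higher by 1 or more and the median of the 12 was -0.04. Among other erasers, 4 of 8 rose and 3 fell in RIP. Hr, a corepressor with H3K9 eraser homology, was higher by 1.75 after Adriamycin in p53+/+ input. The median of these 8 erasers there was -0.17, with 4 above and 4 below 0. Of 22 partner subunits tested, 9 rose and 9 fell in RIP. Hcfc1, a subunit of the Setd1 and Kmt2 complexes, rose by 3.42 and Wiz, a partner of Ehmt1 and Ehmt2, by 3.37, whereas Wdr5, which anchors the H3K4 writers, fell by 1.07 and Trim28, which recruits Setdb1, by 1.05. After Adriamycin, 7 of the 22 partners were lower by 1 or more in p53+/+ input, Trim28 by 1.51, and 0 in p53-/- input, beside 6.2% and 0.194% of all genes. Of 12 reader genes, 4 rose and 4 fell in RIP, and 3 were lower by 1 or more after Adriamycin in p53+/+ input, with a median of -0.80 against -0.66 for the partners and -0.17 for all genes. Of 10 enzymes of the methyl donor cycle, 2 rose and 7 fell, and of 8 enzymes of 2-oxoglutarate supply, 1 rose and 5 fell.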

How the data were processed

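The authors' tables give FPKM per transcript record with a lower and an upper bound, and a coverage signal, on mouse build mm9 per the file headers and labels. Per the submitters' processing notes, CASAVA 1.8.2, TopHat2 2.0.8 and Cufflinks were used. The deposited FPKM of records were summed per gene, with symbols matched by accession (30227 of 30769 records) to a GRCm38.p6 gene table, and coverage times length gave the bases on transcripts. Libraries were scaled by the median ratio over 16076 genes above 0 in all 8. The 11832 genes that averaged at least 1 FPKM were tested on log2(scaled FPKM + 1) with limma 3.58.1 in R 4.3.3, with Benjamini-Hochberg adjustment: RIP against input, blocked on the 4 culture conditions, and the RIP minus input differences between genotypes. The scripts were tested on simulated data. Comparisons with 1 library a side have no test, and bounds and depth cover counting error only. For the counts of bounds lying apart, bounds were summed over a gene's records and divided by the library's factor.

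Members and lists were chosen with earlier results of these data known. Values in every library are given for the 5 largest called RIP changes each way, for members at 1 or more in a single-library comparison, the highest and lowest by input, and members whose records moved apart. The labels do not say that the 8 libraries came from separate cultures. The alternatives were pseudocounts of 0.1 and 5, no filter or 5 FPKM, FPKM as deposited, quantile normalization, the highest record per gene, a length trend removed, no replicate block, each pair left out, counting at 0.5, and, chosen after seeing the data, the median ratio over the genes tested.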

Additional observations from a re-analysis of the deposited data

Results flagged for a closer look

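Over the 4 RIP minus input differences of a gene, 1 combination stood apart from the other 3 for Kmt2c, Suv39h1 and Suv39h2. The gap to the nearest value divided by the whole range was 0.890, 0.940 and 0.868 in that order, above the critical value for 4 samples. Chance flags about 1 in 20 such groups, and 37 were examined.

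The RIP minus input difference of Kmt5a was lower in p53-/- than in p53+/+ cells by 1.24 on the log2 scale (-1.24, limma adjusted p = 0.0210). In this test untreated and treated cells stood in for replicates. For Ehmt2 and Kmt5b both p53+/+ differences lay on one side of 0 and both p53-/- differences on the other. The genotypes differed by 0.25 for Ehmt2 (adjusted p = 0.386) and by -0.74 for Kmt5b (adjusted p = 0.110), which did not pass the test. With its highest record alone, the Kmt5b difference was -0.0421 (adjusted p = 0.915), and that record lay below input in all 4 combinations. For Kmt2d, Setd1b and Setd6 the Adriamycin change was negative in p53+/+ and positive in p53-/- cells, in input and in RIP. In p53-/- cells most of these changes were small, at 0.05, 0.11 and 0.02 in input and 0.04, 0.07 and 0.31 in RIP. The p53+/+ minus p53-/- difference of the input changes was -0.23, -1.05 and -0.47, and it was not tested, since each change rests on 1 library a side.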

How the results depend on the processing

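Of members called in RIP against input, higher ones (23) numbered 12 with FPKM as deposited and 15 with the length trend removed. Lower ones (3) numbered 13, with FPKM as deposited, 6 with the length trend removed, 1 under quantile normalization, 1 with the median ratio over the genes tested (an alternative chosen after seeing the data) and 0 without the replicate block. With a pair left out, the higher count ran from 19 to 24 and the lower from 2 to 3, and 21 of the 26 calls held in all 4 of these fits. The calls of Kdm2b, Kdm3a, Kdm4c, Setd4 and Setd6 were lost in at least 1 of them. Among members called in either fit, the sign turned with FPKM as deposited for Ehmt2 (-0.75), Kdm1b (-0.0062), Kdm2a (-0.0894), Kdm3a (-0.29), Kdm4b (-0.50), Kdm4c (-0.35), Kdm5a (-0.0337), Kmt5b (-0.62), Kmt5c (-0.29), Nsd2 (-0.42), Setd2 (-0.0644), Setd3 (-0.65), Setd4 (-0.25), Setd6 (-0.43) and Setdb1 (-0.65), as the median of all genes moved to -0.72, and for Kdm5a (-0.20) and Nsd2 (-0.40) with the length trend removed and Kmt5b (-0.56) with its highest record. Called in neither fit, 1 more member turned with FPKM as deposited (Kdm4a, -0.38), 4 with the length trend removed and 2 with the highest record. For the RIP/input ratio between genotypes, 21 members were higher with FPKM as deposited, where the median of all genes moved from -0.05 to 0.53 and 14 values turned, of which Kdm5c (0.56), Nsd1 (0.66) and Setd5 (0.67) were called. The lower count (1) was 0 without a filter and with FPKM as deposited, 2 at 5 FPKM or more, and 0 to 3 with a pair left out.

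Counts of single-library differences of 1 or more changed as follows. The 6 lower in p53+/+ input after Adriamycin numbered 2 with a pseudocount of 5, 1 with FPKM as deposited, 3 each under quantile normalization, the length trend and the tested-gene ratio, and 17 at 0.5. The 7 lower in p53+/+ RIP numbered 3 with a pseudocount of 5, 2 under quantile normalization, 3 with the tested-gene ratio and 17 at 0.5, where 1 was higher. In p53-/- RIP, 1 was higher with the highest record. Between genotypes in untreated input, the higher count (0) was 1 with a pseudocount of 0.1, 1 with the highest record and 4 at 0.5. The lower count (1) was 3 with a pseudocount of 0.1, 2 with the highest record, 8 at 0.5, and 0 with a pseudocount of 5, quantile normalization, the length trend or the tested-gene ratio. In treated input, the higher count (2) was 4 with a pseudocount of 0.1, 1 with a pseudocount of 5, 4 with the highest record and 7 at 0.5, and the lower count (0) was 1 under quantile normalization and 2 at 0.5. In untreated RIP, the higher count (0) was 3 with FPKM as deposited, 1 with the highest record and 3 at 0.5, and the lower count (3) was 0 with FPKM as deposited and 13 at 0.5. In treated RIP, the higher count (2) was 11 with FPKM as deposited, 4 with the highest record and 7 at 0.5, and the lower count (0) was 1 with a pseudocount of 0.1 and 5 at 0.5. For the difference between genotypes in the Adriamycin change, the lower count (2) was 4 with a pseudocount of 0.1, 0 with a pseudocount of 5, 12 at 0.5, and 1 at 5 FPKM or more, with the length trend or with the tested-gene ratio. The causes were not tested.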
